A study of Mus musculus with 2 samples.

Results

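Kinesins are motor proteins that use ATP to move along microtubules or to take them apart. Mitotic kinesins build the spindle, move chromosomes and complete cell division, whereas transport kinesins carry vesicles, organelles and other cargo through the cell. Erythroblasts, the red cell precursors that still have a nucleus, divide several times before they expel it.

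The Kif family was taken as all protein-coding genes whose GENCODE mouse symbol begins with Kif and a digit. The rule gave 39 of the 21461 nuclear protein-coding genes in the tables. Of these, 12 were assigned to a mitotic class, 15 to a transport class and 12 to neither. The last set includes Kif1bp, a kinesin binding protein that is not itself a motor, so 38 members are motors. The rule uses no measured value.

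Total RNA was sequenced in 2 libraries of 1 group, primary cells labelled as erythroblasts from C57BL/6J mice that were male, adult and 5 to 6 weeks old. The input was 1 ng of RNA per library, with spike-ins added. The labels list separate biosamples under a single donor entry without naming separate animals, so the spread between libraries may be technical. The labels name no genetic change or treatment, and with no second condition no test between conditions was possible.

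Replicate 1 held 80806663 expected counts and replicate 2 held 117032607, of which nuclear protein-coding genes took 5.44% and 5.82%. Members of the Kif family took 0.152% and 0.161% of the nuclear protein-coding counts, or 6680 and 10945 counts. Levels are given as rescaled TPM, which is the deposited TPM divided by its sum over nuclear protein-coding genes and multiplied by 1000000, so that it corrects for transcript length. Errors are SDs of n = 2 libraries. A step of 0.01 in the deposited TPM, its last decimal, equals 0.214 rescaled TPM in replicate 1 and 0.196 in replicate 2. All 8 listed erythroid markers and all 6 listed markers of cycling cells reached a rescaled TPM of 1 in both libraries. Across all nuclear protein-coding genes 42.9% reached it. The cycling list includes Kif11 and Kif23, so it is not independent of the family.

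Markers of other lineages were present beside the erythroid ones. All 10 listed neutrophil lineage markers reached a rescaled TPM of 1 in both libraries, with a summed level of 43747 and 46265, against 222549 and 224508 for the 8 erythroid markers. Most of the erythroid sum was globin RNA: the 6 erythroid markers other than Hbb-bs and Hba-a1 summed to 11397 and 10796, below the neutrophil lineage sum. No gene was left out of that neutrophil lineage sum, so the comparison is uneven. In it, S100a9 held 14200.3 and 16291.7 and S100a8 held 13162.5 and 14511. The median marker level was 2829 and 2751 for the erythroid and 2013 and 1957 for the neutrophil lineage list. All 6 monocyte and macrophage markers also reached a rescaled TPM of 1 in both libraries, with sums of 4399 and 4691. So did all 4 megakaryocyte markers, with sums of 69.1 and 93.9. In contrast, 1 of 3 B cell markers and none of 3 T cell, 4 neuron and 3 ciliated cell markers passed, and every ciliated cell marker had 0 counts. Cycling cells of any of these lineages express mitotic kinesins, and the part of the non-erythroid cells in the levels below was not tested. In such bulk RNA, fewer cells of a type and less RNA per cell cannot be told apart.

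Promoters of mitotic genes are known for 2 short elements: CCAAT boxes, bound by the factor NF-Y, and the cell cycle homology region, bound by complexes that hold such genes down outside G2 and M phase. The letters CCAAT and, for the second element, TTTGAA were searched on both strands in RefSeq promoter windows (build GRCm38.p6) of 250 bases before and 50 bases from the start site. No CCAAT match overlapped a TTTGAA match in a member's window. Of the 39 members, 31 had a window. Kif1bp, Kif5a, Kif5b, Kif13b, Kif19a, Kif20a, Kif21b and Kif28 did not. Below are the 150 bases before the start site of 4 mitotic members, shown because they carry the matches, and of Kif3b and Kif2a for contrast, in the direction of transcription and with the matches in capitals.
Kif11, the spindle motor, chr19:37376232-37376381, plus strand: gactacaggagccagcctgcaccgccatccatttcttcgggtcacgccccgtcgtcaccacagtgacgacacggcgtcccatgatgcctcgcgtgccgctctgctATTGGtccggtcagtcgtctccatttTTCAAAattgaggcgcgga
Kif15, chr9:122950931-122951080, plus strand: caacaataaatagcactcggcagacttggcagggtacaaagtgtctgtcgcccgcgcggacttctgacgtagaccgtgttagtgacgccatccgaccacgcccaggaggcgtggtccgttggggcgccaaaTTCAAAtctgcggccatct
Kif22, chr7:127042421-127042570, minus strand: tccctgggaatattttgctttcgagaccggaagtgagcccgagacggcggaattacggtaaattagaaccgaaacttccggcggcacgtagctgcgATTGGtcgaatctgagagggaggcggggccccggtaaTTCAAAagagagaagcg
Kif23, chr9:61946800-61946949, minus strand: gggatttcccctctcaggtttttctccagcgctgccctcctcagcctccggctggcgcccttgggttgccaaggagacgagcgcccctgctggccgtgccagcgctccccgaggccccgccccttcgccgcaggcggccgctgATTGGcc
Kif3b, chr2:153291266-153291415, plus strand: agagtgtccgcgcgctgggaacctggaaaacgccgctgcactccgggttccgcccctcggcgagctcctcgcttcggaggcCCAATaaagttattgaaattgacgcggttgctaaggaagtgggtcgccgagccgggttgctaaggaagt
Kif2a, the depolymerase, chr13:107022115-107022264, minus strand: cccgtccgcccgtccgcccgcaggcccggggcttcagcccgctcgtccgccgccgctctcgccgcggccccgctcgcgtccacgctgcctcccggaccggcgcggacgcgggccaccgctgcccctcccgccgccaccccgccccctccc

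In the sequences above, matches in capitals on the opposite strand read ATTGG and TTCAAA. The TTTGAA motif was present in 9 of 11 windows of mitotic members, against 17.9% of all 32851 promoter windows in the table. CCAAT was present in 7 of these 11 windows, against 37.4% of all windows, and both motifs together in 6, against 6.95%. Kif11, Kif4, Kif14, Kif18b, Kif22 and Kif23 held both.

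Among transport members, 1 of 13 windows, which belong to 11 genes, held TTTGAA, and none held both motifs. That window belongs to Kif1a, a neuronal vesicle motor with 0 and 10 counts. CCAAT stood in 4 of the 13 windows, those of Kif3a and Kif3b and the 2 overlapping windows of Kif1b. In Kif11 the TTTGAA match began 19 bases before the start site, in Kif15 at 19 bases and in Kif22 at 17 bases. In Kif23 it began at base 3 of the transcript, just past the stretch printed. Kif18a, a mitotic member with reads, held neither motif, and neither window of Kif2a held one. In the remaining set, 2 of 11 windows, or 18.2%, held both motifs, those of Kif26b, with 0 counts in both libraries, and Kif27, with 0 and 1. These matches are letters in a window and were not tested as binding sites.

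Of the 39 members, 21 were detected, meaning a rescaled TPM of at least 1 in both libraries, which is 53.8% against 42.9% of all nuclear protein-coding genes. The mitotic class had 11 of 12 members detected, the transport class 7 of 15, and the remaining set 3 of 12. Another 12 members held some reads without reaching this level in both libraries, and 6 had 0 counts in both.

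Mitotic kinesins stood higher as a class. Their median rescaled TPM was 21.5 in replicate 1 and 18.5 in replicate 2, a mean of 20.0 ± 2.09. The transport class had a median of 1.28 and 3.33, a mean of 2.31 ± 1.45. For comparison, the median over all nuclear protein-coding genes was 0.517 ± 0.176, and over the 9210 detected ones 14.5 ± 0.0210. The log2 ratio of the class medians, with 0.1 added to each, was 3.96 in replicate 1 and 2.44 in replicate 2, a mean of 3.20 ± 1.08. Genes of a class are not replicates, so this ratio carries no test. It was 1.75 for the summed instead of the median level and 1.97 over detected members only.

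**Figure D1:**
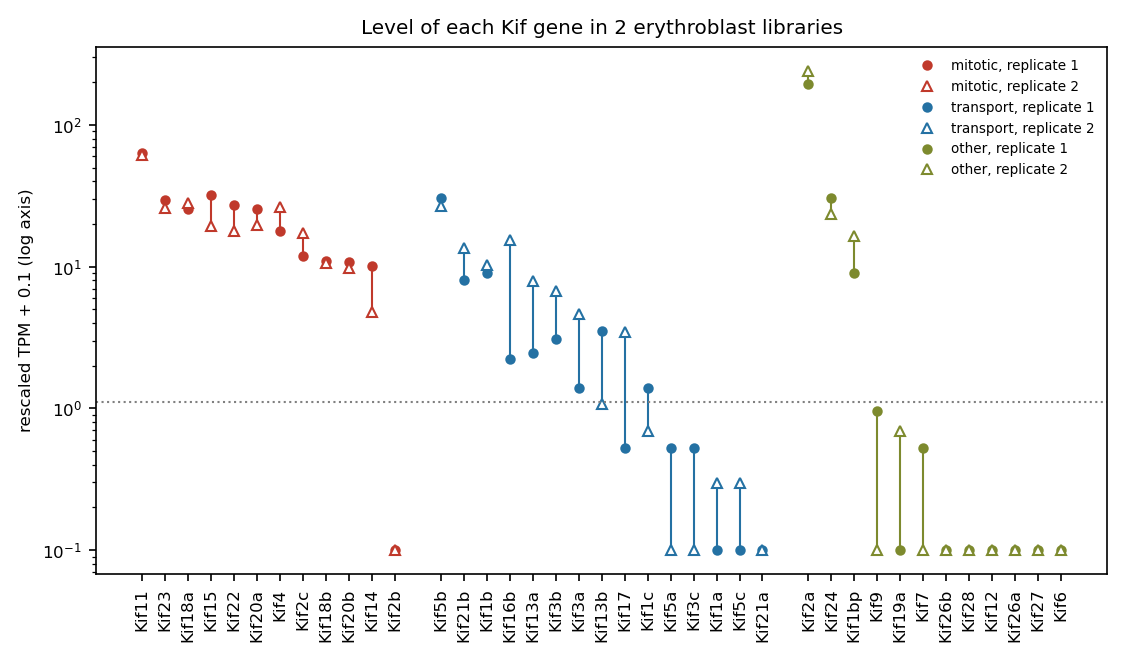
Rescaled TPM plus 0.1 (log axis) of all 39 Kif genes by class, with filled circles for replicate 1, open triangles for replicate 2 and a line joining the libraries. The dotted line marks a rescaled TPM of 1. Mitotic members other than Kif2b lie between 4.71 and 63.1, and the transport class runs from 30.2 for Kif5b down to 0.

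Kif11 led the mitotic class. It encodes the kinesin-5 motor that slides antiparallel spindle microtubules and pushes the spindle poles apart. The gene (ENSMUSG00000012443, chromosome 19, 37376403 to 37421859, plus strand, mm10) had 995 and 1550 counts, or a rescaled TPM of 63.1 and 61.4, a mean of 62.2 ± 1.20. Its share of nuclear protein-coding counts differed by a ratio of 1.00 between the libraries, with a 95% interval of 0.927 to 1.09 that covers counting error only. Kif11 ranked 1416 among the 21461 nuclear protein-coding genes. In rescaled TPM, it was the mitotic member that stood above Kif5b in both libraries.

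Kif15, a motor that can help keep the spindle bipolar beside Kif11, was less even. Its rescaled TPM was 32.1 in replicate 1 and 19.2 in replicate 2, from 504 and 485 counts. Replicate 1 was thus 1.67 times higher, and the ratio of count shares, 0.620 for replicate 2 over replicate 1, had a counting interval of 0.547 to 0.704.

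All 4 kinesins listed under chromosome arms and alignment were detected, against 42.9% of all nuclear protein-coding genes. Kif18a, which dampens chromosome movements at the metaphase plate, had 25.4 and 27.8 rescaled TPM, and Kif22, a chromosome arm motor, had 27.2 and 17.8. Kif4, a chromosome-bound kinesin that also acts at the midzone and lies on the X chromosome, had 17.7 and 26.1. Kif18b, which trims astral microtubules, was lower and even, at 10.9 and 10.6.

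For Kif4 the ratio between the libraries differed between counts and TPM. Its counts were 209.71 and 632.87, a 1.94-fold higher share in replicate 2 (counting interval 1.66 to 2.28), while its rescaled TPM was 1.47-fold higher. In replicate 1, 30.9% of the gene's TPM was given to the 709-base transcript Kif4-202 from 10.56 counts, against 8.43% in replicate 2.

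All 4 kinesins listed under midzone and cytokinesis were also detected, against the same 42.9% of all genes. Kif23 (chromosome 9, 61915905 to 61946774, minus strand), the motor subunit of centralspindlin, had 29.3 and 25.7 rescaled TPM, a mean of 27.5 ± 2.55. Kif20a, which carries the passenger complex to the midzone, had 25.2 and 19.6. Kif20b, a late mitotic motor, had 10.7 and 9.61. Kif14, a cytokinesis motor that binds citron kinase and Prc1, was the lowest detected mitotic member in rescaled TPM. It stood at 10.1 and 4.71, and replicate 1 was 2.14 times higher. That rank depended on the estimate. By the posterior mean of TPM, another deposited estimate rescaled in the same way, Kif14 stood at 18.1 and 10.8. Kif20b was then the lowest, at 10.4 and 9.28.

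Among mitotic depolymerases, Kif2c, which corrects wrong attachments at the centromere, had 11.8 and 17.1 rescaled TPM from 102 and 158 counts. Its share of counts was nearly equal in the libraries, with a ratio of 0.999 (counting interval 0.774 to 1.29). Its retained-intron transcripts took 7.85% of the gene's TPM in replicate 1 and 45.9% in replicate 2. Kif2b, the related depolymerase, had 0 counts in both libraries.

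The most abundant member belonged to neither class. Kif2a, a kinesin-13 that depolymerises microtubule ends at spindle poles and also in interphase cells, had 1785.42 and 3478.83 counts. Its rescaled TPM was 194 and 240.2, a mean of 217 ± 33.0, which ranked 435 among nuclear protein-coding genes. The gene lies on chromosome 13, 106958996 to 107022126, minus strand. Kif2a alone held 34.6% and 39.4% of the summed level of the family, against 47.1% and 39.3% for the 12 mitotic members together.

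The lead of Kif2a over Kif11 held in both libraries but its size depended on the length used. It was 3.07-fold and 3.91-fold in rescaled TPM. Per kilobase of each gene's longest transcript, a setting chosen after seeing the data, it was 1.63-fold and 2.04-fold. The 288-base transcript Kif2a-205 took 19.8% and 31.7% of the gene's TPM from only 19.87 and 57.03 counts, while the 5304-base Kif2a-201 held 67.8% and 79.6% of the counts.

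For 4 members whose exons overlap a gene on the opposite strand, counts were split with that gene. Kif2a overlaps Dimt1 over 1229 exonic bases, Kif4 overlaps Pdzd11 over 832, Kif20a overlaps Cdc23 over 1271, and Kif5b overlaps the antisense gene Gm17036 over 142. Except for Kif5b with Gm17036 in replicate 2, where Gm17036 held 0, the counts of each pair were not whole. The sums were whole numbers, 1873 and 3705 for Kif2a with Dimt1 and 322 and 823 for Kif4 with Pdzd11. They were 403 and 525 for Kif20a with Cdc23, and 476 and 614 for Kif5b with Gm17036. Kif18a overlaps Mettl15 by 11 bases, and the counts of both were whole. The sources used here do not say if the counting used strand, so the division of such reads is uncertain. Dimt1 itself held 87.58 and 226.17 counts, few beside those of Kif2a. Pdzd11 held 112.29 and 190.13 counts, and Cdc23 held 110.61 and 163.19.

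Kinesin-1, the main motor of outward organelle transport, was represented by Kif5b, its widely expressed heavy chain. Kif5b had 471.8 and 614 counts and a rescaled TPM of 30.2 and 26.7, a mean of 28.4 ± 2.46. These values overlapped those of Kif23, at 25.7 to 29.3, so these genes were not separated beyond the spread between libraries. Of the 12 mitotic members, 9 lay below Kif5b within each library in rescaled TPM. Kif11 lay above it in both, and Kif15 and Kif18a lay above it in 1 library. This order depended on the setting. Over protein-coding transcripts alone, a setting chosen after seeing the data, Kif5b stood at 27.8 and 21.9. Kif23, at 38.5 and 34.1, and Kif15, at 42.1 and 25.5, then joined Kif11 above it in both libraries. So did Kif22, at 35.7 and 23.7, and Kif20a, at 33.1 and 26.0. Kif4, at 16.0 and 31.8, lay above it in replicate 2 only, and the other mitotic members lay below it. The neuronal heavy chains Kif5a and Kif5c held 11 and 0 counts, and 0 and 9 counts.

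Kinesin-2 motors carry cargo along cilia and in the cytoplasm. Kif3b had 2.99 and 6.67 rescaled TPM from 55 and 195 counts, and its usual partner Kif3a had 1.28 and 4.51 from 13 and 72. Replicate 2 was higher for both, and the counting intervals of the ratio of count shares, 1.69 to 3.14 for Kif3b and 1.96 to 7.03 for Kif3a, lay above 1. Kif17 had 2 and 40 counts, and Kif3c had 7.8 and 2.01.

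Kinesin-3 motors move vesicles and endosomes. Kif1b, a motor for synaptic vesicle precursors and mitochondria, had 8.98 and 10.2 rescaled TPM. Its share of counts was lower in replicate 2, with a ratio of 0.690 (counting interval 0.557 to 0.854). Kif13a, which moves recycling endosomes, had 2.35 and 7.84 from 51 and 287 counts, a 3.33-fold difference in rescaled TPM. Kif13b, the highest transport member not detected in both libraries, had 3.42 and 0.981 from 62 and 30 counts, and Kif1c had 27 and 20 counts. In the kinesin-4 pair of the transport class, Kif21b, which acts on microtubule growth, had 7.91 and 13.3 rescaled TPM, while Kif21a had 2 counts and 0.

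Kif16b, an early endosome motor, differed most between the libraries among detected members, at 2.14 and 15.3 rescaled TPM from 23 and 145 counts. The 1542-base retained-intron transcript Kif16b-202 took 65.7% and 92.4% of its TPM, with 6.92 and 105.98 counts. The coding transcript Kif16b-201 held 16.08 and 39.02 counts, or 34.4% and 7.59% of the gene's TPM. Over protein-coding transcripts alone, a setting chosen after seeing the data, the rescaled TPM of Kif16b was 1.12 and 1.56.

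Apart from Kif5b, transport members overlapped the lower mitotic ones in rescaled TPM. In both libraries, 7 of 12 mitotic members exceeded every value of the other transport members, whose highest was 15.3 for Kif16b in replicate 2. That value rested mostly on the retained-intron transcript Kif16b-202. Per kilobase of the longest transcript, a setting chosen after seeing the data, the highest such value was 13.4, for Kif21b in replicate 2. All mitotic members except Kif14 and Kif2b exceeded it in both libraries. In rescaled TPM, Kif21b, at a mean of 10.6 ± 3.83, and Kif1b, at 9.59 ± 0.860, lay among Kif18b, Kif20b and Kif14. For Kif1b this place depended on the setting. Over protein-coding transcripts alone, also chosen after seeing the data, Kif1b stood at 6.18 and 4.43, below Kif14 at 8.99 and 4.69. Ordered by mean level, the 21 detected members form 20 neighbouring pairs, and the values of the libraries overlapped in 17. The 3 steps without overlap were from Kif2a to Kif11, from Kif11 to Kif5b, and from Kif4 to Kif2c. The last was narrow, at 17.7 for Kif4 in replicate 1 against 17.1 for Kif2c in replicate 2. By the posterior mean of TPM, another deposited estimate rescaled in the same way, these values were 18.3 and 18.9 and overlapped.

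Kinesins of the cilium and of Hedgehog signalling were at or near 0, with Kif24 as the exception. Kif24, a depolymerase of the mother centriole that holds back cilium growth, had 30.2 and 23.3 rescaled TPM from 249 and 269 counts. Much of this level rested on short transcripts: 4 noncoding processed transcripts took 66.1% and 68.0% of its TPM but 24.6% and 17.9% of its counts. Over protein-coding transcripts alone Kif24 stood at 13.5 and 9.89, a setting likewise chosen after seeing the data. In the same list, Kif7, which regulates Hedgehog signalling at the cilium tip, had 6 counts and 1, Kif9 had 9 and 1, Kif19a had 0 and 4, Kif27 had 0 and 1, and Kif6 had 0 in both.

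The remaining members Kif12, Kif26a, Kif26b and Kif28 had 0 counts in both libraries, as did Kif2b and Kif6. A count of 0 allows up to 3 counts, which over these 6 genes corresponds to a rescaled TPM of at most 0.123 to 0.639 in replicate 1 and 0.0769 to 0.403 in replicate 2. Such limits, like the intervals above, leave out duplicate reads, since no molecular identifiers were counted. Kif1bp, the binding protein, had 8.98 and 16.5 rescaled TPM from 63 and 170 counts.

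Between the libraries, 7 of the 19 members with a mean of at least 100 counts lay over 1.5-fold apart in rescaled TPM, or 36.8%, against 29% of all 5536 nuclear protein-coding genes with that depth. Among the 4738 of these genes with under 1000 counts, where most members fall, it was 33.1%. Replicate 2 was higher for Kif13a, Kif3b, Kif21b and Kif1bp, where 15.4% of all such genes were higher. Replicate 1 was higher for Kif14, Kif15 and Kif22, against 13.6% of all.

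Directions depended on the depth asked for in the transport class and on the scaling in the mitotic class. With a mean of at least 100 counts, all 3 mitotic members apart, of 11, were higher in replicate 1, and all 3 transport members apart, of 5, were higher in replicate 2. The median log2 ratio of replicate 2 to replicate 1 was -0.15 over the 11 mitotic members and 0.75 over the 5 transport members, against -0.01 over all 5536 genes. With a mean of at least 20 counts, the transport members Kif13b, at 3.49-fold, and Kif1c, at 2.18-fold, were higher in replicate 1, while Kif3a, Kif16b and Kif17 were higher in replicate 2. The mitotic members apart were still Kif14, Kif15 and Kif22, higher in replicate 1. By counts scaled with TMM factors Kif21b and Kif22 were no longer apart and Kif4 was, higher in replicate 2. These ratios compare 2 libraries of the same group and not conditions.

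**Figure D2:**
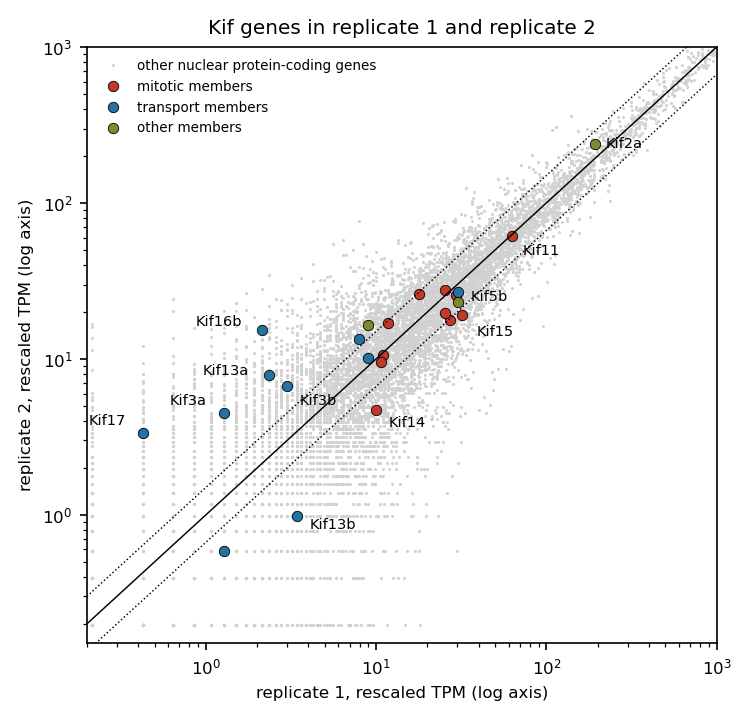
Rescaled TPM of replicate 1 against replicate 2 (both log axes) for Kif genes above 0 in both libraries, by class, over the other nuclear protein-coding genes in grey. The solid line marks equal levels and the dotted lines a 1.5-fold difference. Kif2a and Kif11 lie close to the line, Kif13a, Kif3b and Kif16b above it, and Kif14 and Kif15 below it.

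Across the 21 detected members, levels in the libraries had a Pearson correlation of 0.844 on the log2 scale and a Spearman correlation of 0.847. Without Kif2a these were 0.790 and 0.822 over 20 members. The points share their libraries and annotation, and genes are not independent.

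Transcripts of members were called alike in the libraries about as often as those of other detected genes. The leading transcript, the one with the highest TPM of its gene, was the same for 17 of 21 detected members, against 74.6% of all detected nuclear protein-coding genes. Of these 21, 7 had a single transcript in the table, among them Kif11, Kif23, Kif15 and Kif22. Among the other 14, 10 kept their leading transcript, against 66% of detected genes with more than 1 transcript.

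The 4 that differed were Kif14, Kif24, Kif1b and Kif1bp. Kif14 passed from Kif14-201 (68.3% of its TPM in replicate 1) to Kif14-203 (75.5% in replicate 2), 2 coding transcripts of 8770 and 8943 bases, and each had 0 counts in the other library. Kif1b passed to the 586-base retained-intron transcript Kif1b-204, at 62.5% from 15.09 counts in replicate 2. In replicate 1 the retained-intron Kif1b-210 and the coding Kif1b-201 were both deposited at a TPM of 0.14, and the deposited percent put Kif1b-210 ahead, at 34.0% against 33.2%. In Kif24 the coding Kif24-202 led with 33.9% and then the 705-base Kif24-203 with 64.2%, from 45 counts. In Kif1bp, Kif1bp-201 and the nonsense-mediated decay transcript Kif1bp-207 were both deposited at a TPM of 0.17 in replicate 1, where the deposited percent put Kif1bp-207 ahead, at 41.9% against 39.8%. The coding Kif1bp-206 led in replicate 2 with 60.3%.

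Retained-intron transcripts took a visible part of other members. In Kif18a they held 27.6% and 40.2% of the counts, while the coding Kif18a-201 held 75.2% and 58.9% of the TPM. In Kif5b they held 11.2% and 14.8% of the counts, and Kif5b-201 carried 69.8% and 61.8% of the TPM. Kif2a-201 led its gene with 36.0% and 41.4% of the TPM, under 60% in both libraries, and Kif2c-201 fell to 54.1% in replicate 2.

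**Figure D3:**
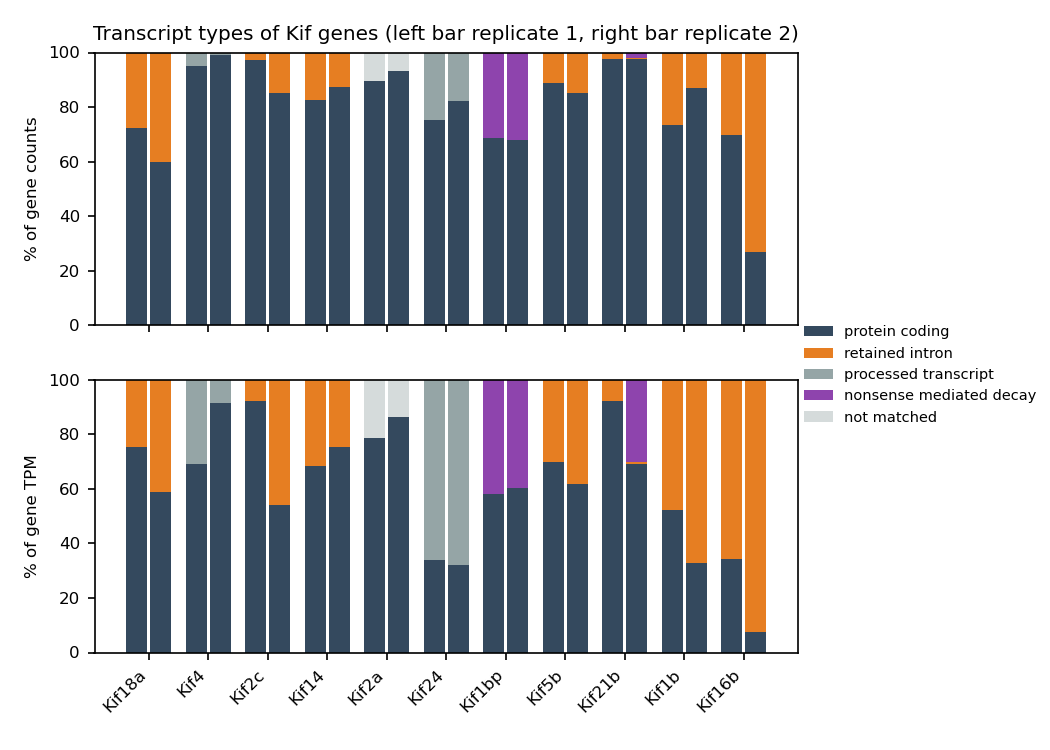
Share of counts (upper panel) and of TPM (lower panel), in percent, by annotated transcript type for the 11 detected Kif genes with reads in other transcripts (for Kif2a, one whose type was not matched), replicate 1 on the left and replicate 2 on the right of each pair. In Kif24 the noncoding share is 24.6% of counts but 66.1% of TPM in replicate 1, and in Kif16b the retained-intron share of counts is 30.1% and 73.1%.

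Genes that work with mitotic kinesins were detected throughout. All 10 listed midzone, passenger and cytokinesis partners passed, against 42.9% of all nuclear protein-coding genes. Their median rescaled TPM was 39.1 ± 2.53. Birc5, the passenger subunit survivin, led at 117 and 85.1, followed by the microtubule bundler Prc1 at 62.4 and 67.9, the citron kinase gene Cit at 62.0 and 58.0, and Cdca8 at 64.2 and 52.0. Plk1, a mitotic kinase, and Anln, which scaffolds the cleavage furrow, were lowest at 29.9 and 26.9, and 22.7 and 25.1.

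All 12 spindle assembly partners were detected as well, against the same 42.9% of all genes, with a median of 31.8 ± 5.20. The spindle protein Nusap1 stood at 114 and 119, the checkpoint gene Mad2l1 at 75.1 and 79.4, Tpx2 at 44.9 and 40.6 and the condensin gene Ncapg at 46.0 and 33.9. The lowest were Numa1 at 18.0 and 14.9 and Kntc1 at 10.1 and 10.6. The median of the mitotic members, 20.0, was below those of both lists.

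Relatives of the family that carry other symbols included a more abundant motor. Cenpe, the kinesin-7 of the kinetochore, had 2183 and 2756 counts and 84.5 and 66.5 rescaled TPM, above Kif11 in both libraries. The minus-end motor Kifc1 had 18.0 and 5.10 from 56.51 and 56.08 counts, and the near-identical Kifc5b 2.78 and 5.30 from 23.49 and 71.92. Their counts were not whole, so their split is uncertain. Kifc3 and Kifc2 stood at 1.07 and 0.981, and 0.855 and 0.588.

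Among subunits and cargo adaptors of transport kinesins, 7 of 12 were detected, Kif1bp included, against 42.9% of all nuclear protein-coding genes. The median of the list was 5.06 ± 1.72. Trak2, an adaptor that links kinesin-1 to mitochondria, stood far above every kinesin at 1352 and 1163 rescaled TPM from 15082 and 21208 counts. Mapk8ip3, another adaptor, followed at 49.4 and 43.5, then Kif1bp and the mitochondrial GTPase Rhot1 at 12.2 and 8.63. The kinesin light chain Klc1, chosen after its values were seen, stood at 5.77 and 13.5, and Kifap3, the subunit that joins Kif3a and Kif3b, likewise chosen, had 18 and 6 counts. Klc3 had 0 and 5.53 counts and Mapk8ip1 0 in both.

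Cytoplasmic dynein, the motor that moves the opposite way, was detected for 9 of 10 listed genes, against 42.9% of all nuclear protein-coding genes. The median of the list was 20.9 ± 2.12. The light chain Dynll1 stood at 191 and 183, the intermediate chain Dync1i2 at 44.7 and 43.3, the heavy chain Dync1h1 at 32.1 and 31.8 and the dynactin gene Dctn2 at 40.0 and 22.4. Dynll2 was low at 2.14 and 2.55 and the neuronal chain Dync1i1 had 0 counts. Dync1h1 was thus close to Kif5b, at 30.2 and 26.7.

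**Figure D4:**
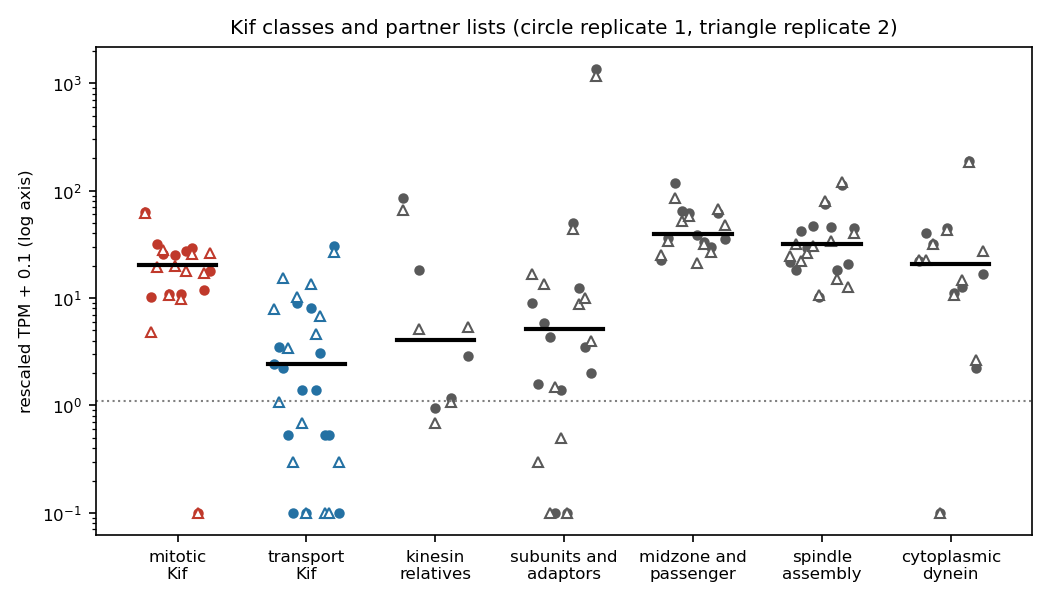
Rescaled TPM plus 0.1 (log axis) of each gene in the mitotic and transport Kif classes and in 5 partner lists, with circles for replicate 1 and triangles for replicate 2. Black bars mark the mean over libraries of the list median, and the dotted line a rescaled TPM of 1. Mitotic Kif genes have a median of 20.0 beside 39.1 for midzone and passenger partners and 31.8 for spindle assembly partners, and transport Kif genes one of 2.31.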

How the data were processed

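The read-me files record a transcriptome alignment on mm10 with GENCODE M4 as the source of the tables. No source used here names the aligner or the quantifier. The authors deposited expected counts (estimated reads per gene or transcript, shared out where a read matches several places), TPM scaled over all rows, FPKM per the file headers, the posterior mean of TPM (a score beside the maximum likelihood value) and the percent of a gene's TPM per transcript. TPM was deposited with 2 decimals.

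The 42462 gene rows matched to GENCODE M21 by identifier without version took symbols, types and coordinates from it. TPM was rescaled over 21461 nuclear protein-coding genes. Expected counts were rounded for edgeR 4.0.16 (TMM) and DESeq2 1.42.0 (size factors), used only as alternative scalings. With 1 group no test was run. Ratio intervals are exact conditional binomial intervals of the rounded counts at 95%. A count was called not whole beyond 0.005. The ratio step was tested on simulated counts.

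Named were all detected members, the highest and lowest of the others per class, members over 1.5-fold apart or with a leading transcript that differed or held under 60%, and up to 4 highest and 2 lowest of each partner list. Members, lists and rules were chosen with earlier results of these data known.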

Additional observations from a re-analysis of the deposited data

How the results depend on the processing

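The values rest on 2 libraries and, for 17 of the 21 detected members, on a mean of 100 to 1000 counts. The number of detected members was 21. It was 16 at a rescaled TPM of 5, 26 by the posterior mean, and 22 to 23 with 1 library left out. Those added by the posterior mean were Kif6 and Kif12, with 0 counts in both libraries, and Kif1a, Kif5c and Kif19a, with 0 in replicate 1. The 26 thus includes members without reads. The share of all genes was found only for the main setting. The class medians stayed within 1 SD by the posterior mean and by FPKM. With 1 library left out they were 18.5 to 21.5 for mitotic and 1.28 to 3.33 for transport members. The log2 ratio of class medians, 3.20, was 1.97 over detected members and 1.75 for sums, and 2.44 to 3.96 with 1 library left out. In the other 10 settings it was 2.62 to 3.66. The 7 of 19 members over 1.5-fold apart became 12 of 24 with a mean of at least 20 counts and 3 of 19 at a 2-fold limit. They became 6 of 19 by TMM, DESeq2 size factors, count shares and counts per kilobase of the longest transcript. The share over all genes was not computed at these settings, so these counts cannot be set against it. The leading transcript was the same for 17 members by TPM, posterior mean and expected count, and for 15 among members with a mean of at least 100 counts. By expected count these were not the same members as by TPM. Kif24-202 then led in both libraries, while Kif16b passed from Kif16b-201 to Kif16b-202. Leaving out the adult globin genes from the scaling raised all levels in a library by a common factor, and moved 19 of 21 by more than 1 SD. Protein-coding transcripts alone moved 10, the longest transcript 11 and the posterior mean 5. Settings on the longest transcript, on coding transcripts, on count shares between libraries, on unrounded values and on more than 3 counts were added after seeing the data. No paired analysis was possible because there is 1 group.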
